A study of Mus musculus with 48 samples.

Results

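The genes described here encode the Polycomb complexes of mouse embryonic stem cells. The 10 members were chosen by name and not by a rule on measured values, although earlier results of these data were known. From Polycomb repressive complex 2 (PRC2) they are Ezh2, Eed, Suz12, Jarid2 and Mtf2. From Polycomb repressive complex 1 (PRC1) they are Rnf2, Ring1, Pcgf6, Cbx7 and Kdm2b. Of these 10, 9 are among the 23862 genes with a value in the series. Cells of the mouse embryonic stem cell line E14TG2a were kept in medium with serum, leukemia inhibitory factor and the inhibitors CHIR99021 and PD0325901, and transcription was blocked with 1 µM flavopiridol, which inhibits the kinase that lets RNA polymerase II leave its pause. Polyadenylated RNA was sequenced at 30, 60, 120 and 240 min from 4 fractions, which were the whole-cell extract (total), the nucleus, the cytosol that digitonin releases, and the membrane fraction that a stronger detergent releases. Each of the 16 combinations has 3 replicates from separately passaged cultures, so 48 libraries were analysed. Every library comes from flavopiridol-treated cells of 1 line, and cycloheximide was present from harvest on. The value of a gene is its level relative to 0 min in the same fraction, so 1 means the starting level, and the 0 min libraries and untreated cells at later times were not analysed here.

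Polycomb complexes keep developmental genes silent in embryonic stem cells. PRC2 places methyl groups on a lysine of histone H3 through Ezh2 or its paralog Ezh1, which work only together with the core subunits Eed and Suz12. Accessory subunits define alternative forms of PRC2, one with Jarid2 and another with Mtf2 or its relatives, and both help the complex to find its target sites. PRC1 attaches ubiquitin to histone H2A through the paralogous enzymes Ring1 and Rnf2. A Pcgf protein decides which form of PRC1 an enzyme joins: Pcgf6 belongs to a variant form, Kdm2b brings another variant form to unmethylated CpG sites, and Cbx7 reads the mark of PRC2 in the canonical form of pluripotent cells.

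A gene was counted as listed in a library where the file held a value for it. Of the 10 members, 6 (Eed, Jarid2, Mtf2, Ring1, Pcgf6 and Cbx7) were listed in all 48 libraries, as were 10694 genes in all. Rnf2 was listed in 26 libraries, Kdm2b in 15 and Suz12 in 2, and Ezh2 was not analysed here. A library listed 15067 to 19501 genes, and the read depth behind a ratio is unknown. The nuclear 30 min library of replicate 1 stood apart, with a median ratio of 0.555 against 0.934 and 0.805 in replicates 2 and 3. Of 10 markers of pluripotent cells, including Pou5f1, Sox2 and Nanog, 8 were listed in all 48 libraries, Zfp42 in 47 and Esrrb in 37. Of 10 markers of other cell types, T was listed in 46 libraries, Col1a1 in 44, Thy1 in 43, Gata6 in 42, Cdx2 in 27, Pax6 in 7, Sox17 in 1, and Gata4, Foxa2 and Afp in none. Ratios carry no level, so the listing does not tell how much RNA of these markers the cells held. In bulk RNA, less of a transcript per cell and a smaller share of cells that carry it cannot be told apart.

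Among the PRC2 members listed in all 48 libraries, Mtf2 transcripts were lost fastest and Jarid2 transcripts were the most persistent. Between them lay Eed, the subunit that binds the methyl mark. Eed is on chr7:89954654-89980983 (GRCm38, minus strand), with 12 exons in the coding transcript with the longest coding sequence. In total RNA the Eed ratio in replicates 1 to 3 was 0.824, 0.985 and 0.870 at 30 min, and 0.459, 0.461 and 0.417 at 240 min. In the nucleus it was 0.749, 0.982 and 0.886 at 30 min, and 0.349, 0.331 and 0.319 at 240 min. The 30 and 240 min values did not overlap in either fraction. Cytosolic Eed averaged 0.975 ± 0.042 (SD, n = 3) after 30 min, and its mean after 240 min was 0.419 ± 0.026. Membrane Eed had means of 0.859 ± 0.040 and 0.353 ± 0.053 at these times. Eed therefore ended between a mean of 0.333 in the nucleus and 0.445 in total RNA.

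Jarid2 lies on chr13:44729474-44921643 (plus strand), has 18 exons in the transcript used here, and is the longest gene of the 10 at 192170 bases. In the nucleus its ratios were 1.39, 1.55 and 1.16 at 30 min, 1.33, 1.20 and 1.34 at 60 min, 1.06, 1.20 and 1.09 at 120 min, and 1.12, 1.02 and 0.952 at 240 min. Nuclear Jarid2 was thus above its starting level in 11 of 12 libraries, and in no library of the other 3 fractions. The share of all genes above 1 in as many nuclear libraries was not counted. In the cytosol the ratios were 0.660, 0.869 and 0.847 at 30 min, 0.689, 0.896 and 0.908 at 60 min, 0.626, 0.744 and 0.608 at 120 min, and 0.447, 0.433 and 0.415 at 240 min. The nuclear ratios of Jarid2 were above the cytosolic ones without overlap at each of the 4 times, as were those of 4.26% of 11232 genes. In total RNA the mean was 0.846 ± 0.035 at 30 min and 0.674 ± 0.045 at 240 min, while membrane Jarid2 had 0.770 ± 0.135 and 0.590 ± 0.105. The membrane values at 30 and 240 min overlapped.

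Mtf2, on chr5:108065674-108109004 (plus strand, 15 exons), is the other accessory subunit of PRC2 here. Its ratios in total RNA were 0.656, 0.930 and 0.893 at 30 min, 0.535, 0.646 and 0.771 at 60 min, 0.252, 0.521 and 0.465 at 120 min, and 0.266, 0.271 and 0.243 at 240 min. In the nucleus they were 1.10, 1.40 and 0.890 at 30 min, and 0.284, 0.255 and 0.288 at 240 min. In the cytosol they were 0.696, 0.844 and 0.902 at 30 min, and 0.212, 0.185 and 0.183 at 240 min. At 240 min Mtf2 was lower than Jarid2 and Eed in every total and cytosolic library. The membrane fraction of Mtf2 went from a mean of 0.989 ± 0.046 to 0.294 ± 0.052. Suz12, on chr11:79993106-80034123, had values only in nuclear 30 min libraries, 0.523 in replicate 1 and 0.675 in replicate 3.

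The 3′ UTRs of these transcripts were searched, on the sense strand only, for 2 motifs of mRNA turnover, the AU-rich heptamer TATTTAT and the element TGTANATA that Pumilio proteins bind. The sites are shown for the transcripts whose rates of decline are compared below. Mtf2 has 4 matches to TGTANATA in a 3′ UTR of 2059 bases, Jarid2 has 1 in 1691 bases and Pcgf6 has 1 in 1012 bases, whereas Eed (283 bases), Ring1 (590 bases) and Cbx7 (2509 bases) have none. The first 2059 bases of 2229 3′ UTRs of at least that length, from genes listed in all 48 libraries, were searched the same way, and 31.4% held at least 1 match and 0.449% held 4 or more. For the lengths of Jarid2 and Pcgf6 the shares with at least 1 match were 27% and 17.4%. TATTTAT occurs once each in Mtf2 and Cbx7, at lengths where 38.4% and 43.9% of 3′ UTRs hold it, and in none of Eed, Jarid2, Ring1 and Pcgf6. The sequences below come from the GENCODE M21 transcripts (GRCm38), are written 5′ to 3′ as DNA, and have the match in capitals.
Mtf2, chr5:108107312-108107341: caaacagatcaTGTAGATAgcacaagtatt
Mtf2, chr5:108107409-108107438: ataaagtgcagTGTATATAatgtctactga
Mtf2, chr5:108107543-108107572: ttgcatgtacaTGTATATAcacacatgtgt
Mtf2, chr5:108107559-108107588: atacacacatgTGTATATAtatgtgtgtga
Mtf2, chr5:108108391-108108420: tggttagtgctTATTTATtccattaattga
Jarid2, chr13:44921000-44921029: cccatccctttTGTACATActcctgtaaat
Pcgf6, chr19:47033645-47033674 (minus strand): aatttatgaacTGTACATAaatctcttctg
Cbx7, chr15:79915858-79915887 (minus strand): tgtatagcatcTATTTATttagatgattta
No match overlaps another, although the windows around the last pair of Mtf2 TGTANATA sites do. A match describes letters in the annotated 3′ UTR, and no binding was measured.

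**Figure D1:**
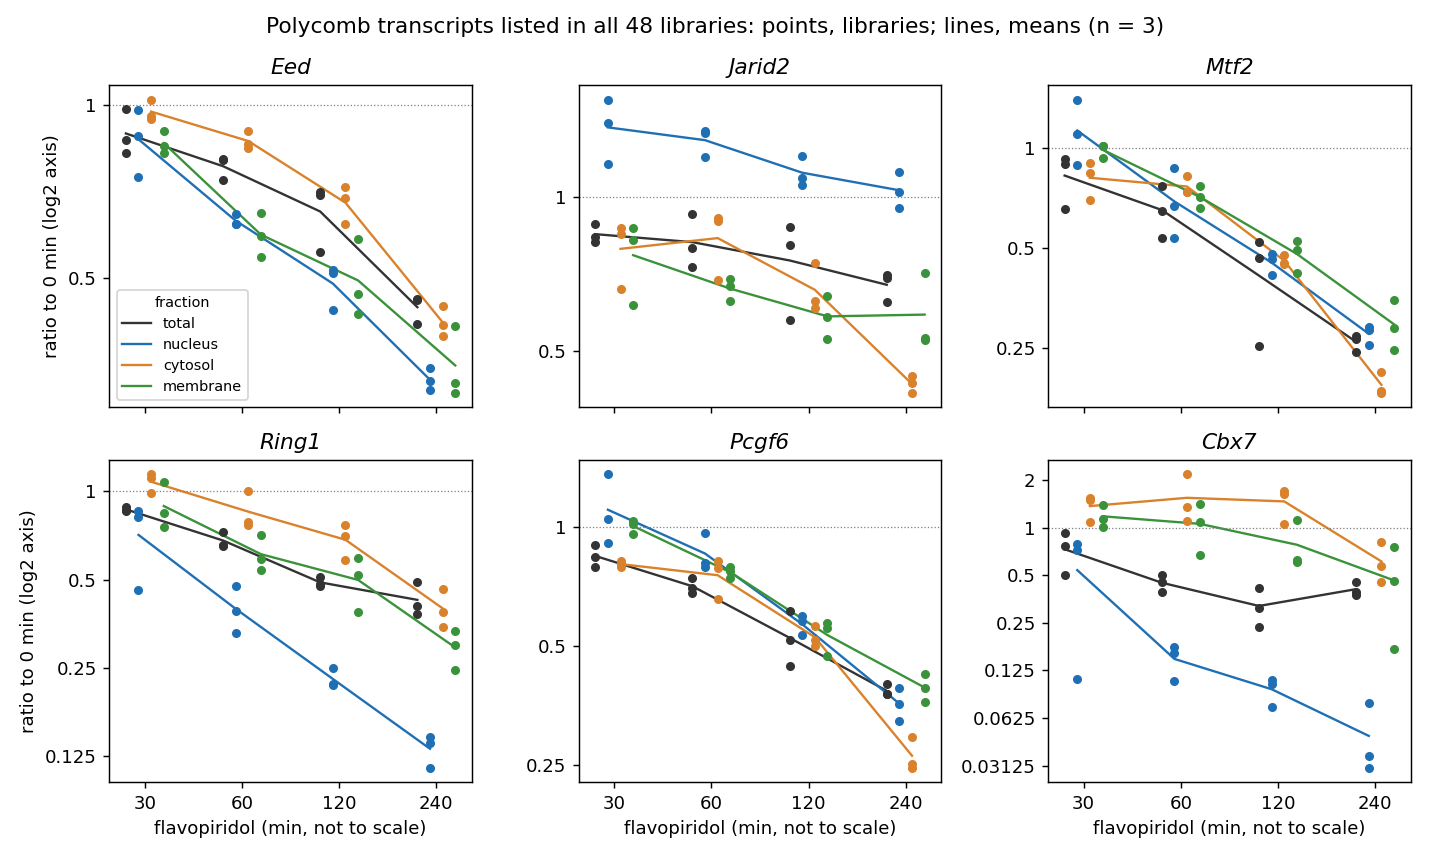
Ratio to 0 min (log2 axis) against time in flavopiridol for the 6 members listed in all 48 libraries, with 1 point per library, a line through the means of 3 replicates and a colour per fraction. Nuclear Jarid2 stayed near or above 1, whereas nuclear Cbx7 and Ring1 ended lowest of their fractions, with means of 0.048 and 0.133 at 240 min.

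Among the 3 PRC1 members listed in all 48 libraries, Ring1 and Cbx7 had nuclear ratios far below the cytosolic ones, whereas the nuclear means of Pcgf6 were above the cytosolic means at each time. Ring1, on chr17:34020792-34024680 (minus strand), is the shortest of the 10 genes at 3889 bases. Its nuclear ratios were 0.460, 0.855 and 0.813 at 30 min, 0.475, 0.328 and 0.389 at 60 min, 0.221, 0.249 and 0.218 at 120 min, and 0.139, 0.145 and 0.115 at 240 min. Its cytosolic ratios were 1.10, 0.983 and 1.14 at 30 min, and 0.345, 0.464 and 0.387 at 240 min. Nuclear Ring1 was below cytosolic Ring1 without overlap at all 4 times, as were 17.0% of 11232 genes. In total RNA Ring1 went from 0.866 ± 0.012 at 30 min to 0.426 ± 0.058 at 240 min.

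Cbx7, the chromodomain subunit, is on chr15:79915807-79971119 (minus strand, 6 exons in the transcript used here). Its nuclear ratios were 0.111, 0.787 and 0.720 at 30 min, 0.107, 0.161 and 0.175 at 60 min, 0.0732, 0.109 and 0.103 at 120 min, and 0.0780, 0.0362 and 0.0304 at 240 min. The value of 0.111 came from the nuclear 30 min library of replicate 1 that stood apart. Cytosolic Cbx7 was 1.08, 1.5 and 1.54 at 30 min, 2.18, 1.11 and 1.36 at 60 min, 1.70, 1.64 and 1.06 at 120 min, and 0.453, 0.808 and 0.576 at 240 min. Cytosolic Cbx7 was therefore above its starting level in all 9 libraries up to 120 min and below it in all 3 at 240 min. The share of all genes with this course was not counted. In total RNA the ratios were 0.763, 0.927 and 0.503 at 30 min, and 0.376, 0.394 and 0.456 at 240 min, after a lowest value of 0.235 at 120 min. Membrane Cbx7 lay above 1 in 6 of 12 libraries and ranged from 0.172 to 0.760 at 240 min, the widest spread among replicates of the 6 genes there.

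Pcgf6, the subunit of the variant PRC1 that pairs with Mga and Max, is on chr19:47033617-47050906 (minus strand, 10 exons). Its total ratios were 0.790, 0.901 and 0.840 at 30 min, and 0.376, 0.400 and 0.377 at 240 min. The nuclear ratios went from 0.909, 1.36 and 1.05 to 0.356, 0.391 and 0.322, and the cytosolic ones from 0.792, 0.817 and 0.804 to 0.294, 0.250 and 0.246. The means of Pcgf6 at 240 min lay between 0.263 (cytosol) and 0.392 (membrane fraction), with the other fractions between them.

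The remaining PRC1 members had too few values for a test. Rnf2, the main ubiquitin ligase of PRC1 in these cells, on chr1:151458004-151500955, was listed in 7 total, 7 nuclear, 6 cytosolic and 6 membrane libraries. Its nuclear ratios ranged from 0.0534 to 0.728 and its cytosolic ratios from 0.779 to 1.68. At 60 min in total RNA Rnf2 gave 0.251, 0.239 and 1.31 in replicates 1, 2 and 3, so replicates of 1 group did not hold together. Kdm2b, on chr5:122870665-122989823, was listed in 6 total, 6 nuclear and 3 membrane libraries and in no cytosolic one. Its total ratios were 1.55, 0.918 and 0.823 at 30 min and 4.07 and 0.854 in replicates 1 and 3 at 60 min. At 240 min Kdm2b was listed in no library. The nuclear ratios of Rnf2 were 0.0806, 0.380 and 0.728 at 30 min, below the cytosolic ones of 1.499, 0.779 and 1.685 without overlap. Of 11232 genes listed in all nuclear and cytosolic libraries, 30.2% lay below in this way at 30 min. The value of 0.0806 came from the nuclear 30 min library of replicate 1 that stood apart. At 60 min the nucleus had 0.0871 and 0.0881 and the cytosol 1.42 and 1.08, in 2 libraries each. This gap was not tested.

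**Figure D2:**
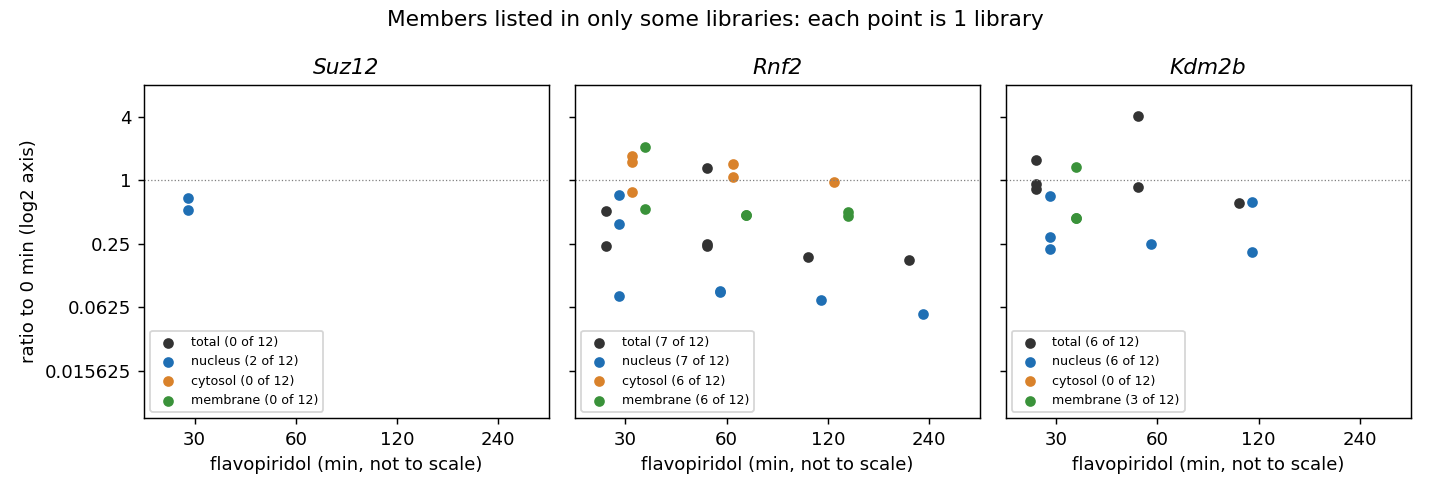
Ratio to 0 min (log2 axis) of Suz12, Rnf2 and Kdm2b in each library that listed them, by time and fraction, with the number of listing libraries of 12 in the key. Suz12 has 2 points, and replicates of Rnf2 and Kdm2b at 1 time can lie far apart, as at 60 min in total RNA.

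The question for each fraction was whether a transcript declined over the time course. Slopes of log2 ratios against time were tested with limma (two-sided, adjusted by Benjamini-Hochberg over all genes of the fraction), and a gene was called at an adjusted p under 0.05. In total RNA 4 of the 6 testable members fell and none rose, where 56.9% of 12762 genes fell and 3.39% rose. Mtf2 fell by 0.46 ± 0.07 (SE) log2 units per hour (adjusted p = 9.71e-05), Pcgf6 by 0.32 ± 0.04 (adjusted p = 9.26e-06), Eed by 0.28 ± 0.03 (adjusted p = 5.11e-06) and Ring1 by 0.28 ± 0.04 (adjusted p = 0.000150). Jarid2 had a slope of -0.09 ± 0.04 (adjusted p = 0.0528) and Cbx7 one of -0.18 ± 0.10 (adjusted p = 0.146), so neither passed. Over 30 to 120 min alone Cbx7 did pass in total RNA, at -0.75 (limma, adjusted p = 0.00901), and Jarid2 passed with 180 min as the last time (adjusted p = 0.0469). The median slope of the 6 members was -0.28, beside -0.22 over all genes.

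In the nucleus all 6 testable members fell, where 61.9% of 13343 genes fell and 3.32% rose. Cbx7 had the steepest nuclear slope, -0.80 ± 0.19 (adjusted p = 0.00220), and Ring1 followed with -0.63 ± 0.08. Mtf2 had -0.53 ± 0.07, Pcgf6 -0.45 ± 0.05 and Eed -0.37 ± 0.04. Jarid2 fell least, with -0.11 ± 0.04 (adjusted p = 0.0195), and its call was lost without replicate 1, 2 or 3 (adjusted p = 0.0526, 0.135 and 0.109). This fall began above the starting level, with a nuclear mean of 1.37 at 30 min and 1.03 at 240 min. The call of Cbx7 was lost without replicate 3 (adjusted p = 0.0540). Over 30 to 120 min both calls were lost (adjusted p = 0.155 for Jarid2 and 0.0512 for Cbx7). The nuclear median of the 6 was -0.49, beside -0.30 over all genes.

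In the cytosol all 6 testable members also fell, where 67.1% of 11979 genes fell and 2.95% rose. Mtf2 had a slope of -0.62 ± 0.04, Pcgf6 -0.48 ± 0.03, Ring1 -0.39 ± 0.04, Cbx7 -0.37 ± 0.09, Eed -0.35 ± 0.02 and Jarid2 -0.27 ± 0.04. Without replicate 3 the cytosolic call of Cbx7 was lost (adjusted p = 0.0518), and over 30 to 120 min alone its slope was 0.04 (adjusted p = 0.874), while the cytosolic call of Jarid2 was lost over those times (adjusted p = 0.155). In the membrane fraction 5 of 6 fell, where 62.2% of 12408 genes fell and 4.09% rose, and Jarid2 did not pass, at -0.10 ± 0.05 (adjusted p = 0.0811), although it passed without replicate 3 (adjusted p = 0.0477) and with 180 min as the last time (adjusted p = 0.0465). Over 30 to 120 min the membrane call of Cbx7 was lost (adjusted p = 0.0948).

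These slopes rest on the deposited scaling, which used genes with long half-lives. When each library was instead centred on its median gene, which moved the median slope of all genes by 0.23 to 0.32 log2 units per hour, Mtf2 and Pcgf6 still fell in all 4 fractions. Of all genes, 31.0% then fell and 28.8% rose in total RNA, 29.2% and 29.6% among nuclear, 32.4% and 29.4% among cytosolic, and 30.9% and 28.3% among membrane libraries. Jarid2 then rose relative to the median gene in total RNA (0.14 ± 0.03, adjusted p = 0.00185), the nucleus (0.20 ± 0.05, adjusted p = 0.00232) and the membrane fraction (0.17 ± 0.04, adjusted p = 0.00260), but had 0.01 ± 0.04 in the cytosol (adjusted p = 0.800). Eed, relative to the median gene, fell only in the cytosol, at -0.07 ± 0.02 (adjusted p = 0.00592). Ring1 lost its call in total RNA (adjusted p = 0.229), and Cbx7 lost its cytosolic and membrane calls (adjusted p = 0.439 and 0.201).

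With scaling to mitochondrially encoded mRNAs, all 6 members fell in total RNA (70.0% of all genes) and in membrane RNA (75.3%). Among them, Jarid2 had adjusted p-values of 0.000311 and 0.0153 by limma, and total Cbx7 one of 0.0321. Only 2 of 6, Ring1 and Cbx7, then fell in nuclear RNA (21.9% of all genes), and only Mtf2 and Pcgf6 in cytosolic RNA (29.5%). The study places mitochondria in the membrane fraction and reports a slight mitochondrial contamination of the nuclear one. How well mitochondrially encoded mRNAs serve to scale nuclear and cytosolic libraries was not tested.

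**Figure D3:**
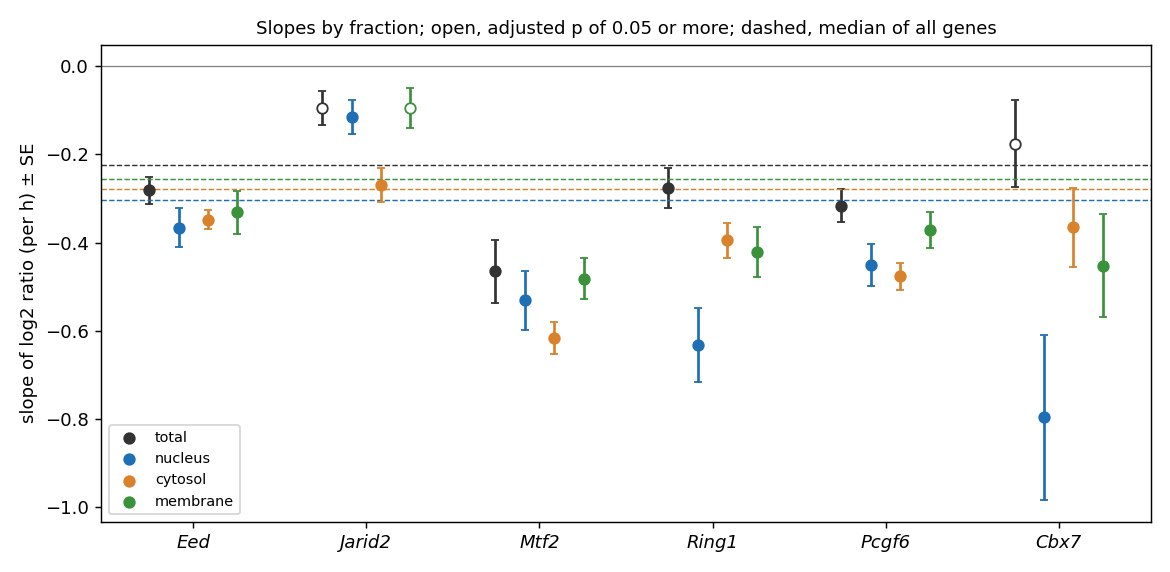
Slope of the log2 ratio per hour with its SE for the 6 testable members in each fraction, with open circles for an adjusted p of 0.05 or more and dashed lines for the median slope of all genes. Mtf2 lies below the medians in every fraction, and Jarid2 lies above them except in the cytosol, where it is level with the median.

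Whether a member declined at another rate in the nucleus than in the cytosol was tested with the interaction of time and fraction in limma. Jarid2 was the only 1 of 6 that passed: its nuclear slope was higher than its cytosolic slope by 0.15 ± 0.05 log2 units per hour (adjusted p = 0.0333), where 12.3% of 11232 genes were higher and 8.30% lower. Ring1 had a difference of -0.24 ± 0.09 (adjusted p = 0.0679) and Cbx7 of -0.43 ± 0.21 (adjusted p = 0.154). The Ring1 difference passed with centring (adjusted p = 0.0236) and with 180 min as the last time (adjusted p = 0.0242). It also passed with a block for each combination of time and replicate number (adjusted p = 0.0465). The labels do not say whether libraries that share both came from 1 harvest. The Jarid2 call was lost without replicate 2 (adjusted p = 0.158) and without replicate 3 (adjusted p = 0.287), and over 30 to 120 min its difference was 0.00 (adjusted p = 0.993). Without replicate 1, Cbx7 passed as well, at -0.81 (adjusted p = 0.0162). Pcgf6, Mtf2 and Eed had differences of 0.03, 0.09 and -0.02, none past the threshold.

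The ratios themselves were also compared between nucleus and cytosol, by overlap and without a test. Jarid2 was the only one of the 6 with nuclear ratios above the cytosolic ones without overlap at all 4 times, which 4.26% of 11232 genes showed, and Ring1 and Cbx7 had nuclear ratios below the cytosolic ones at all 4 times, which 17.0% showed. A ratio is relative to the start of its own fraction, so this is no comparison of amounts between fractions. The 4 times share that 0 min level, so they are not 4 separate observations. After centring every library on its median gene, Pcgf6 joined Jarid2 among the genes above (15.9% of genes), and with scaling to mitochondrially encoded mRNAs no member was above (0.0178% of genes) while Eed joined Ring1 and Cbx7 below (31.1% of genes).

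Between the membrane fraction and the cytosol no member passed, where 4.94% of 11086 genes were higher in the membrane fraction and 1.76% lower. Jarid2 came closest, with a membrane slope higher by 0.17 ± 0.06 (adjusted p = 0.0852). At an unadjusted p under 0.05, limma gave 3 of 6 members, Jarid2, Mtf2 and Pcgf6, all with a higher slope in the membrane fraction, where 13.8% of all genes had one.

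Subunits of 1 complex were then compared with each other within the same library, where library scaling cancels. Of 6 pairs chosen by role, only the accessory PRC2 subunits Jarid2 and Mtf2 had values in all libraries. The ratio of Jarid2 was 1.04 ± 0.17 times that of Mtf2 at 30 min in total RNA and 2.59 ± 0.05 times at 240 min. The nuclear quotient went from 1.22 ± 0.10 to 3.75 ± 0.39 and the cytosolic one from 0.973 ± 0.050 to 2.24 ± 0.12. Membrane libraries gave 0.775 ± 0.104 and 2.01 ± 0.15. The 30 and 240 min quotients overlapped in no fraction.

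The slope of Jarid2 exceeded that of Mtf2 by 0.37 ± 0.04 log2 units per hour in total RNA. The nuclear difference was 0.42 ± 0.06, the cytosolic one 0.35 ± 0.02 and that of the membrane fraction 0.39 ± 0.03. In an exact permutation test of the times within each replicate series (two-sided, 13824 arrangements, n = 3 series), the p adjusted over these 4 tests was 0.000434 for nuclear libraries and 0.000193 for each other fraction. The difference held in all 4 fractions without any 1 replicate and over 30 to 120 min alone. Whether pairs of other genes differ as much was not tested.

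**Figure D4:**
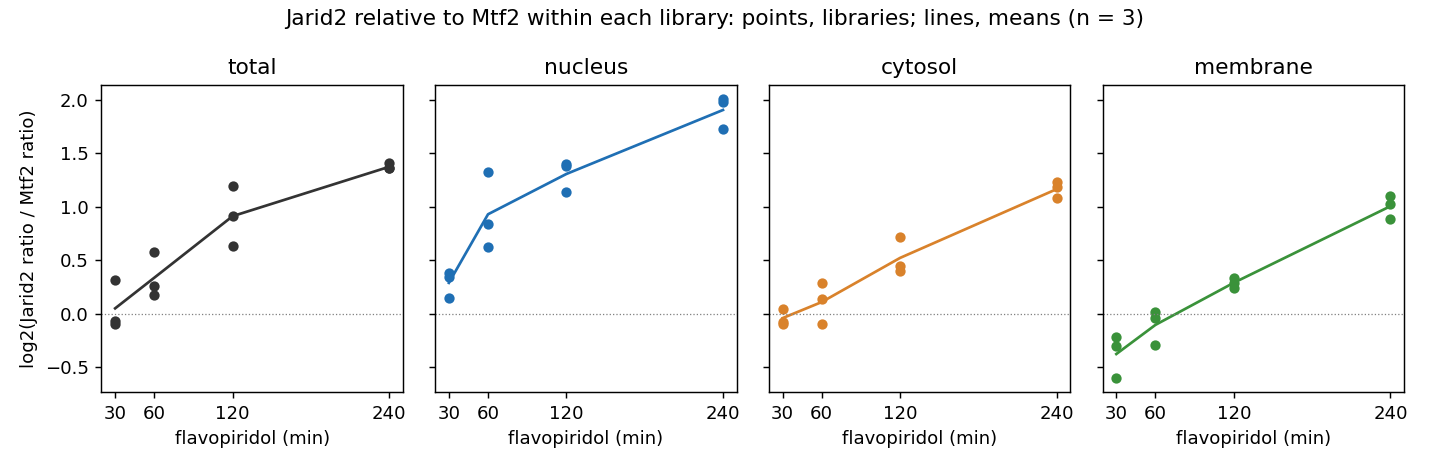
Log2 of the Jarid2 ratio over the Mtf2 ratio in the same library against time in flavopiridol, 1 panel per fraction, with points for libraries and lines through the means of 3 replicates. The quotient rises with time in each fraction, to a mean of 3.75 in nuclear and 2.01 in membrane libraries at 240 min on the linear scale.

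All 15 pairs of the 6 members were also compared, a set chosen after the listing was known, with exact permutation p-values adjusted over 60 tests. The slopes differed in 8 of 15 pairs in total RNA, in 9 among nuclear libraries, and in 7 each among cytosolic and membrane libraries. How often the slopes of other gene pairs differ was not tested, so these counts describe the 6 members only. Differences in all 4 fractions were found for 4 pairs: Jarid2 with Eed, Mtf2 and Pcgf6, and Eed with Mtf2. The slopes of the PRC2 members listed in all 48 libraries thus kept 1 order in every fraction. Mtf2 was steepest, then Eed, then Jarid2, and each step passed the test. Eed, for example, had a slope lower than Jarid2 by 0.19 ± 0.02 and higher than Mtf2 by 0.18 ± 0.05 in total RNA (exact permutation, adjusted p = 0.00163 and 0.0164).

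Among the PRC1 members, Ring1 and Pcgf6 differed only in the nucleus, where Ring1 was lower by 0.18 ± 0.06 (exact permutation, adjusted p = 0.0466). Cbx7 did not pass against Ring1, Pcgf6 or Eed in any fraction, and the SE of those differences was 0.09 to 0.18. Without replicate 2 the number of pairs that passed was 3 in total, 5 in nuclear and 4 in cytosolic RNA, and without replicate 3 it was 4 in total and 4 in nuclear RNA. Fewer series leave fewer arrangements, which raises the smallest p the test can give. How much of the drop this makes was not tested.

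A single exponential was fitted to give a half-life for each member and fraction, with the SD over fits to the 3 replicate series as its error. In total RNA the order was Mtf2 at 110 ± 5.44 min, Pcgf6 at 172 ± 12 min, Ring1 at 181 ± 48.5 min, Eed at 210.2 ± 15.4 min, Cbx7 at 212 ± 374 min and Jarid2 at 634 ± 194 min. The steps from Mtf2 to Pcgf6 and from Eed to Jarid2 were larger than these errors, whereas Pcgf6 and Ring1, Ring1 and Eed, and Eed and Cbx7 were not separated by them. Mtf2 lay at percentile 24 of half-lives among all genes and Jarid2 at percentile 69. The median of the 6 was 196 ± 14.9 min, beside 244 ± 13.5 min over all genes.

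In the nucleus the half-lives were 57.5 ± 37.9 min for Ring1, 78.9 ± 27.2 min for Mtf2 and 114 ± 28.7 min for Pcgf6. Eed had 139.9 ± 39.5 min there and Jarid2 496 ± 96.1 min. The fitted start of nuclear Jarid2 was 1.40. It had no finite half-life with the start fixed at 1, with centring or with mitochondrial scaling. Nuclear Cbx7 gave 18.4 min over the 12 libraries, which is shorter than the first time of 30 min, from a fitted start of 1.65. It gave 339 min in the series of replicate 1 and 13.9 and 16 min in the series of replicates 2 and 3. Without the 30 min library of replicate 1 it gave 13.4 min. In the cytosol Mtf2 again had the shortest half-life, 104 ± 20.6 min, and Jarid2 the longest, 235 ± 97.9 min. Cbx7 followed downwards at 220.2 ± 104 min, from a fitted start of 1.73. With the start fixed at 1, or over 30 to 120 min alone, cytosolic Cbx7 had no finite half-life. In the membrane fraction Mtf2 had 104 ± 15.6 min and Jarid2 573 ± 481 min. The nuclear median of the 6 was 96.6 ± 48.9 min, beside 176 ± 92.4 min over all genes. Their cytosolic median was 159 ± 32.5 min, beside 213 ± 22.8 min, and their membrane median 144 ± 20.8 min, beside 219 ± 22.6 min.

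**Figure D5:**
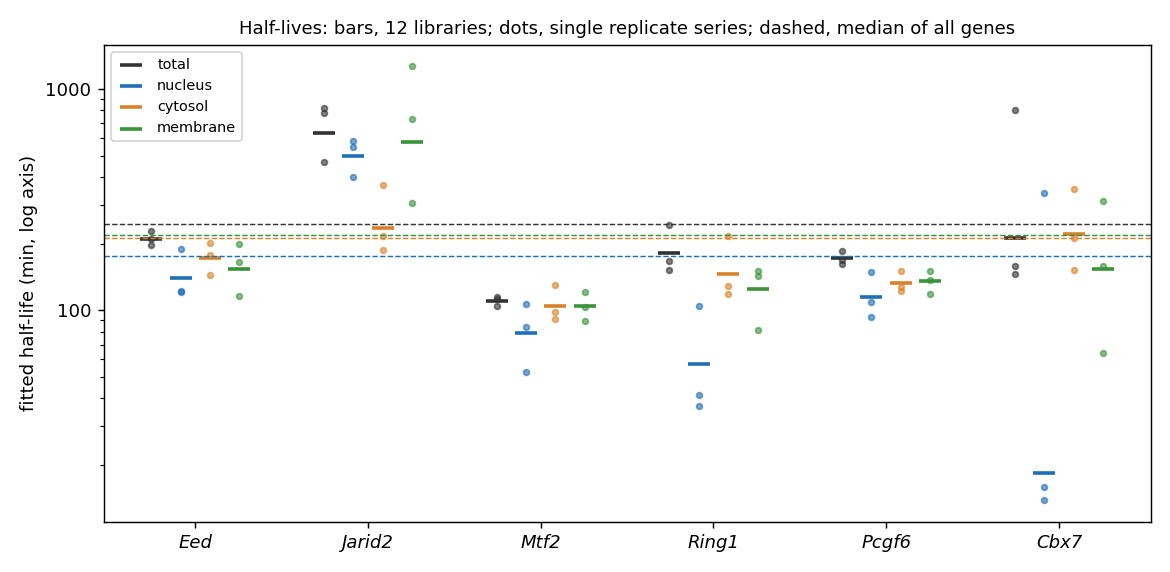
Fitted half-life in minutes (log axis) of the 6 members in each fraction, with bars for the fit to 12 libraries, dots for fits to single replicate series and dashed lines for the median of all genes. The 4 bars of Mtf2 lie between 78.9 and 110 min, while the dots of nuclear Cbx7 lie between 13.9 and 339 min.

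Other genes of the pathway were counted in 3 lists, beside the shares of all genes that fell (56.9% in total, 61.9% in nuclear, 67.1% in cytosolic and 62.2% in membrane RNA) and the median slope of -0.22 over all genes in total RNA. Of 9 other PRC2 genes, all were testable in total RNA and 7 fell, with a median slope of -0.35. Ezh1, the paralog of Ezh2, fell by 0.72 ± 0.11, more steeply than any of the 6 members, and Epop, an accessory subunit of the form with Mtf2, by 0.53 ± 0.04. Rbbp4, a histone-binding subunit that other chromatin complexes share, had -0.05 ± 0.03 (limma, adjusted p = 0.271). Of the same list, 5 of 9 fell in nuclear, 8 of 9 in cytosolic and 5 of 8 in membrane RNA, and none rose.

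Of 22 other PRC1 genes, 13 were testable in total RNA and 12 of them fell, with a median slope of -0.41. Of the paralogs of Cbx7, Cbx2 fell by 1.23 ± 0.06 and Cbx6 by 0.43 ± 0.07 log2 units per hour. Bmi1 and Pcgf3, relatives of Pcgf6, fell by 0.41 ± 0.14 and 0.40 ± 0.04, and Phc3 had the highest slope of this list, -0.16 ± 0.05. Cbx8, Pcgf2 and Pcgf1 were listed in 44, 33 and 4 libraries and were not tested, and Pcgf5 was not analysed here. Of the same list, 13 of 13 fell in nuclear, 12 of 13 in cytosolic and 11 of 12 in membrane RNA.

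Of 7 genes that remove or oppose the Polycomb marks, 6 were testable and 5 fell in total RNA, with a median slope of -0.45. Foxk1, a partner of the deubiquitinase Bap1, fell by 0.65 ± 0.05, and Kdm6b, a demethylase of the PRC2 mark, had -0.13 ± 0.08 (limma, adjusted p = 0.194). All 6 fell in nuclear RNA, and 5 of 6 in cytosolic and in membrane RNA. Slopes were higher in the nucleus than in the cytosol for 3 of 13 other PRC1 genes and lower for 1 of 9 other PRC2 genes. None of the 6 opposing genes differed, where 12.3% of all genes were higher and 8.30% lower. The genes that differed, named here after their values were seen, included Auts2 and Pcgf3, which were higher in the nucleus, as Jarid2 was, and Phf1. The nuclear slope of Phf1, a relative of Mtf2, was lower by 0.36 ± 0.08 (limma, adjusted p = 0.00401). In the membrane fraction against the cytosol, Lcorl alone passed, with a slope higher by 0.20 ± 0.06 (limma, adjusted p = 0.0375). Of all genes, 4.94% were higher there and 1.76% lower.

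The genes whose course was most like that of Mtf2 and Jarid2 were found by the root mean square difference of the mean log2 ratios over the 16 combinations of fraction and time, among genes listed in all 48 libraries. For Mtf2 they were Mterf3 (0.152), Wapl (0.163) and Thap12 (0.168), against a median of 0.813 over all genes. For Jarid2 they were Cse1l (0.138), Vapa (0.152) and Lancl2 (0.166), against a median of 0.782. In total RNA Mterf3, Wapl and Thap12 had slopes of -0.39, -0.43 and -0.47 log2 units per hour, and Cse1l, Vapa and Lancl2 of -0.10, -0.17 and -0.14.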

How the data were processed

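Per the labels and the methods of the study, the authors aligned reads to mm10 with STAR 2.7.6, counted them with RSEM 1.3.3, scaled libraries on genes with long half-lives and divided by 0 min, so that the deposited value is a ratio. The file headers speak of normalized read counts, but the values are ratios, depth is unknown and no counting error is given. Sample titles give 240 min as the last time, which was used, and the protocol text 180 min.

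The members and lists were chosen with earlier results of these data known. Of 23862 gene IDs, 23786 matched a symbol. A gene was tested in a fraction if all 12 libraries listed it (24 for differences between fractions). The test was limma (version 3.58.1, R 4.3.3), letting the prior variance follow mean log2 ratio, on log2 ratios without a pseudocount. Pairs were tested by exact permutation, and exponentials A·exp(-kt) were fitted by least squares, in Python 3.11.15 with NumPy 2.4.6. Of 6 planned pairs, 1 had values in every library, and all 15 pairs of fully listed members were added after seeing the data. The limma p-values measure the spread of libraries around a straight line in time. That spread takes in differences between the 3 replicate cultures and any bend of the course. The permutation p-values come from reordering the times within each replicate series.

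Named genes were the 10 members; of each list, the lowest and highest slope in total RNA among genes listed in all 48 libraries; paralogs of members; and the 3 genes most like the members with the lowest and highest slope. A result that this rule names is not reported here. Positions and 3′ UTRs came from GENCODE M21 (GRCm38), for the complete coding transcript with the longest coding sequence; 8516 of the 10694 genes listed in all 48 libraries had one. The tests were tried on simulated data first. Alternatives covered a pseudocount of 0.1, listing in 9 of 12 libraries, library scaling, limma without trend, and blocks of replicate number or of time with replicate number. They also covered each replicate left out, 30 to 120 min alone, 180 min as last time, a fixed start, a straight line on the log2 scale and 1 nuclear library left out.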

Additional observations from a re-analysis of the deposited data

Results flagged for a closer look

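The slope of Jarid2 differed between nucleus and cytosol by 0.15 log2 units per hour, by limma's interaction of time and fraction (adjusted p = 0.0333). Both slopes were below 0, and the nuclear one was the shallower. The call was kept without the nuclear 30 min library of replicate 1 and lost without replicate 2 or replicate 3. Groups of 3 were too small for a check of single samples that stand apart.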

How the results depend on the processing

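In total RNA, Jarid2 and Cbx7 changed sign when libraries were centred on the median gene (slopes of 0.14 and 0.053), as Jarid2 did in the nucleus (0.20), the cytosol (0.0123) and the membrane fraction (0.17), because centring subtracts the fall of the median gene. Scaling to mitochondrially encoded mRNAs raised the called members to 6 in total and 6 in membrane RNA, left 2 of 6 among nuclear and 2 among cytosolic libraries and turned nuclear Jarid2 to 0.0802. Over 30 to 120 min, cytosolic Cbx7 turned to 0.0409. Leaving out each replicate gave 4 to 5 called members in total, 4 to 5 in nuclear, 5 to 6 in cytosolic and 5 to 6 in membrane RNA, and total Jarid2 passed without replicate 1 (limma, adjusted p = 0.0434). The cause of these changes was not tested beyond the centring.

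The single member that differed between nucleus and cytosol became 0 with a pseudocount of 0.1, with mitochondrial scaling and over 30 to 120 min. The number was 2 with centring and with a block of time and replicate number (Ring1 added), and 0 to 2 with a replicate left out. With 180 min as last time Ring1 passed and Jarid2 did not (limma, adjusted p = 0.0242 and 0.0735). Differences that changed sign passed the test neither before nor after. For nucleus minus cytosol they were Eed without replicate 2 (range -0.030 to 0.0054) and, over 30 to 120 min, Pcgf6 (-0.20) and Mtf2 (-0.25). For membrane minus cytosol they were Eed with centring (-0.0048), Pcgf6, Mtf2, Eed and Jarid2 with mitochondrial scaling (-0.19, -0.16, -0.27 and -0.12) and over 30 to 120 min (-0.18, -0.11, -0.15 and -0.0501), Ring1 without replicate 2 (range -0.0732 to 0.0203), and Eed and Cbx7 without replicate 3 (ranges -0.0542 to 0.0582 and -0.2649 to 0.0596), with ranges over the replicate left out. Members with nuclear ratios above the cytosolic ones numbered 2 with centring and 0 with mitochondrial scaling.

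With replicate number as a block, limma called 4, 6, 6 and 5 members in total RNA, nucleus, cytosol and membrane fraction and 1 and 0 for the differences from the cytosol, so no call changed. Libraries of a fraction with the same number correlated at -0.09 to 0.27 in their deviations, and those with different numbers at -0.19 to 0.14. These ranges overlapped, so no clear pairing by number was seen within a fraction. Nuclear and cytosolic libraries of 1 time gave -0.10 to 0.06 with the same number and -0.12 to 0.14 with different numbers. Membrane and cytosolic libraries of 1 time gave 0.03 to 0.17 and -0.11 to 0.04, so these shared some deviation. Jarid2 against Mtf2 passed in every setting, with no replicate block too. All 15 pairs, in place of the 1 planned pair with values, gave 8, 9, 7 and 7 in the 4 fractions, and over 30 to 120 min 6, 1, 1 and 0. Fewer times also leave fewer arrangements, so the smallest possible p is higher there.

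The median half-life of the members in total RNA, 196 min, became 145 min with a start fixed at 1, 215 min on the log2 scale, 1217 min with centring, 132 min with mitochondrial scaling, 119 min over 30 to 120 min and 136 min with 180 min as last time, and 181 to 197 min with a replicate left out. In the nucleus it was 325 min with centring and 89.2 to 111 min with a replicate left out. In the cytosol it was 203 min with a fixed start, 719 min with centring, 264 min with mitochondrial scaling, 126 min with 180 min as last time and 152 to 175 min with a replicate left out. In the membrane fraction it was 533 min with centring, 77.1 min with mitochondrial scaling, 105 min over 30 to 120 min, 112 min with 180 min as last time and 123 to 149 min with a replicate left out. Single members, always Jarid2 or Cbx7, had no finite half-life in 9 combinations of gene, fraction and setting, which give no value.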
